A study of Mus musculus with 21 samples.

Results

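The comparison described here is that of macrophages kept with the isotype control protein for 12 h against the same cells kept with it for 4 h. Its members are the 6 libraries whose titles name the isotype control at 12 h (3 libraries) or at 4 h (3 libraries), of 21 libraries in the series, and every gene in them was examined. The cells were macrophages grown from bone marrow of C57BL/6J mice with GM-CSF, a growth factor that also drives granulocyte and dendritic cell growth. Per the series design they lacked the mannose receptor, and this holds for all groups. The study asked what FcMR, a fusion of the Fc region of human IgG1 with the extracellular region of that receptor, does to such cells for 4, 12 or 24 h, and the isotype protein is its control. The groups used for reference are untreated cells at 0 h, isotype cells at 24 h, and FcMR cells at 4 h and 12 h, with 3 libraries each. The labels do not say whether libraries came from separate mice or cultures, so the p-values measure only the spread between these samples, which may be technical. The series holds untreated cells at 0 h only and none at 4 h or 12 h. Time with the control protein therefore cannot be told apart from time in culture.

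Macrophages that meet an inflammatory stimulus switch on genes in waves. A first wave of cytokine, chemokine and immediate early genes depends on transcription factors already present in the cell, among them NF-kB, and is cut back by inhibitors that the same wave induces, such as the NF-kB inhibitor encoded by Nfkbia and the deubiquitinase A20 encoded by Tnfaip3. A second wave depends on proteins made in between, above all type I interferon and the interferon regulatory factor IRF7. The comparison of 12 h with 4 h shows which genes declined and which came up late in the control cells.

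Library totals at 4 h were 6948189, 5532225 and 9171892 counts for replicates 1 to 3, and at 12 h 17243498, 6676302 and 66729533 counts, a 12.1-fold range. The libraries also differed in how high they read GC-rich transcripts. The GC tilt of a library is the mean log2 deviation of the 10% most GC-rich genes from their average over all libraries, minus that of the 10% least GC-rich. It was -0.83, -1.58 and 0.64 in the 4 h libraries and 0.59, 0.81 and 0.82 in the 12 h libraries. Isotype 4 h replicate 3 was thus the 4 h library whose tilt was like that of the 12 h libraries, and by the library numbers in the titles it stands between the FcMR 12 h libraries. In the tenth of genes with the highest GC content (at least 57.3%) 351 genes were higher and 27 lower at 12 h, with a median log2 change of 0.73. In the tenth with the lowest (at most 40.8%) 24 were higher and 449 lower, with a median of -0.41. After a smooth trend on GC content was removed from each library, which levels such medians by design, they were 0.01 and -0.02. With isotype 4 h replicate 3, chosen for its tilt, as the one 4 h library they were 0.07 and -0.05. Neither result shows whether the tilt was technical. The lists below are therefore given with their counts and medians after this GC correction, and the first ones also with the median in that comparison of 1 against 3 libraries of like tilt. A gene said to have risen or fallen was called in the same direction with GC correction too, unless stated. The corrected log2 change is given for some genes only, and where it is absent it may differ as well. For Il6 it was -2.96 against -3.34 uncorrected, and for Asprv1 -3.73 against -3.28. The part of the tilt in a single gene was not tested.

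**Figure D1:**
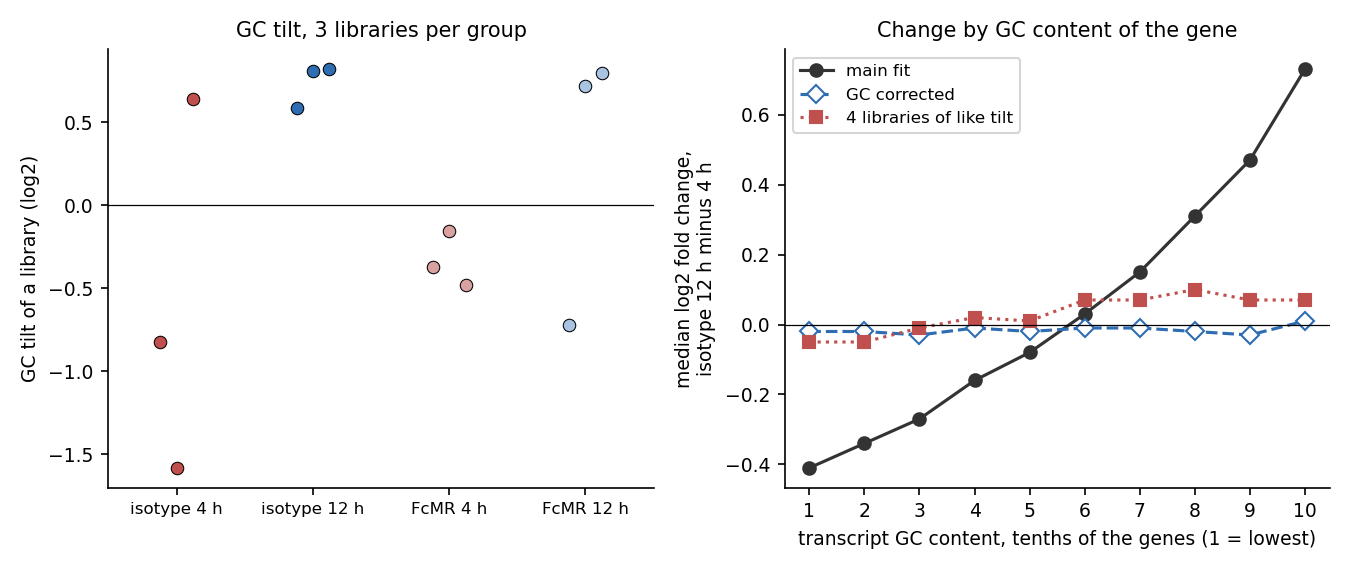
The left panel plots the GC tilt (log2) of each library of 4 groups, and the right panel the median log2 fold change of isotype 12 h against 4 h in 10 bins of genes by transcript GC content. The median rises from -0.41 to 0.73 across the bins in the main fit and stays between -0.03 and 0.01 with GC correction, and 2 of the 3 isotype 4 h libraries lie below all isotype 12 h libraries in tilt.

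Mrc1, the gene of the mannose receptor, had 0 to 10 counts in the 6 libraries and was too low to be tested. All 12 macrophage markers were detected, and their summed level was 29580 to 32800 CPM (counts scaled to a fixed library total) at 4 h and 24590 to 26810 CPM at 12 h. The markers of T and NK cells summed to at most 5.05 CPM and those of B and plasma cells to at most 8.19 CPM. Markers of stroma, fibroblasts and endothelium summed to at most 60.8 CPM and those of erythroid cells and megakaryocytes to at most 42.6 CPM. Markers of neutrophils and their granules summed to 1036 to 1377 CPM at 4 h and 317 to 409 CPM at 12 h, and those of mast cells, basophils and eosinophils to 368 to 461 and 195 to 283 CPM. Dendritic cell markers went the other way, from 1591 to 2093 CPM at 4 h to 2369 to 2572 CPM at 12 h. Osteoclast markers did so too, from 605 to 630 CPM to 760 to 840 CPM. In such mixed RNA, fewer cells of a type and less RNA per cell cannot be told apart.

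Of 13468 genes tested, 4737 (35.2%) were called different between 12 h and 4 h by edgeR at an adjusted p under 0.05. Higher at 12 h were 2143 genes (15.9%) and lower 2594 (19.3%). More than 2-fold were 804 of the higher and 592 of the lower genes, and more than 8-fold 22 and 49. With GC correction 5034 genes (37.4%) were called, 2257 higher (16.8%) and 2777 lower (20.6%). This correction kept 73.3% of the higher and 73.9% of the lower calls, and none was called in the opposite direction. Fewer of the higher and more of the lower calls then passed 2-fold (452 and 617) and 8-fold (16 and 51). The 6 libraries alone, without the spread of the other groups, gave 2689 calls. Without isotype 4 h replicate 3 there were 6739 calls, and without isotype 4 h replicate 2 there were 3126. Counts of the lists below are to be read beside the shares of all genes given here.

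The inflammatory cytokine genes fell. Of 22 tested, 17 were lower at 12 h and 1 was higher, with a median log2 change of -1.59, where the median over all genes tested was 0.01. With GC correction 19 were lower and 1 higher (median -1.57), and among libraries of like tilt the median was -1.40. Il23a, which encodes the chain that makes IL-23 out of the shared p40 subunit, measured 6.32, 6.13 and 5.45 CPM at 4 h and 0.28, 0.293 and 0.182 CPM at 12 h. It fell to near its untreated level of 0.394 ± 0.0825 CPM (SD, n = 3), with a log2 change of -4.72 ± 0.27 (SE; edgeR adjusted p = 2.17e-09; -4.87 with GC correction). Il6, the gene of the acute-phase cytokine interleukin-6 (ENSMUSG00000025746.11, chromosome 5, 30013114 to 30019981, GRCm38), measured 149, 146 and 102 CPM at 4 h and 12.2, 12.9 and 14.02 CPM at 12 h, a log2 change of -3.34 ± 0.24 (edgeR adjusted p = 2.52e-08). All 12 h libraries lay far below the lowest 4 h library, yet above the untreated level of 2.81 ± 0.834 CPM.

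Tnf, the gene of tumour necrosis factor (ENSMUSG00000024401.14, chromosome 17, 35199381 to 35202007), measured 1135, 862 and 1174 CPM at 4 h and 141, 147 and 149 CPM at 12 h. Its log2 change was -2.86 ± 0.11 (edgeR adjusted p = 5.35e-11; -3.05 with GC correction), which brought it from 4 h levels well above the untreated 160.3 ± 5.64 CPM to values just under it. Il1b, which encodes interleukin-1 beta, measured 1035, 1108 and 768 CPM at 4 h and 146, 158 and 145 CPM at 12 h (log2 change -2.70 ± 0.15, edgeR adjusted p = 1.56e-09), and the untreated level was 104 ± 12.8 CPM. Il1b overlaps an antisense gene, Il1bos, and the library kit does not mark strand, so reads from either cannot be told apart. The same limit holds for other genes described here that overlap a gene on the other strand, among them Il1a, Ereg, Hmgcs1, Idi1, Mki67, Ube2c, Psmb8, Psmb10, Acp5, Ccnd3 and Ctsz. Il1a fell like Il1b (log2 change -2.75 ± 0.21), as did the receptor ligand gene Tnfsf9 (-3.10 ± 0.17), whose product co-stimulates T cells. The gene of the p40 subunit shared by IL-12 and IL-23, Il12b, fell less (-1.51 ± 0.15), and at 12 h its 91.7 ± 10.6 CPM still stood above the untreated 12.8 ± 1.24. Il10, the main anti-inflammatory cytokine, was at low levels of 1.87, 1.62 and 2.32 CPM at 4 h and 0.505, 0.734 and 0.666 CPM at 12 h (log2 change -1.63 ± 0.36, edgeR adjusted p = 0.0022). The cytokine gene that rose was Tnfsf13b, which encodes the B cell survival factor BAFF (1.13 ± 0.25). Ifnb1, the gene of interferon beta, did not pass the test (-1.19 ± 0.67).

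**Figure D2:**
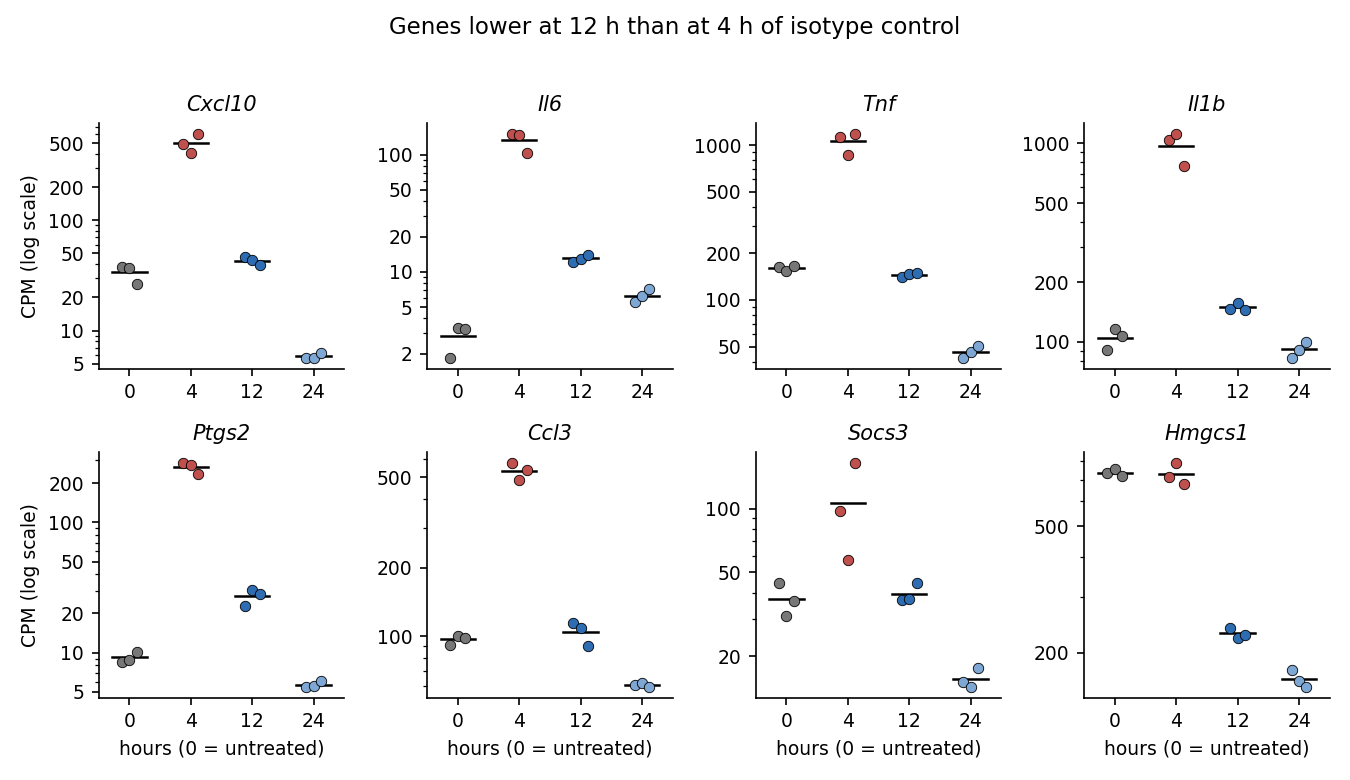
Each panel plots the CPM (log scale) of 1 gene in every untreated (0 h) and isotype library, with 3 points per time and a bar at their mean. In all 8 genes every 12 h library lies below every 4 h library, and Cxcl10, Tnf, Ccl3 and Socs3 are at 12 h near their untreated level.

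Chemokine genes, whose products draw leukocytes, fell in 13 of 22 and rose in 3 (median -1.15). The counts were the same with GC correction (median -0.95), and the median among libraries of like tilt was -1.06. Cxcl10 (ENSMUSG00000034855.13, chromosome 5, 92346638 to 92348889), an interferon-induced ligand of CXCR3, measured 494, 411 and 600.5 CPM at 4 h and 46.8, 43.4 and 39.2 CPM at 12 h. It fell by more than a factor of 8 in all pairs of libraries (log2 change -3.54 ± 0.16, edgeR adjusted p = 1.64e-10) and by 24 h was at 5.89 ± 0.359 CPM, under the untreated 33.7 ± 6.24. Cxcl10 lies inside Art3 on the other strand, as does Cxcl11. The other CXCR3 ligands Cxcl11 (-3.20 ± 0.43) and Cxcl9 (-1.25 ± 0.16) fell too, and so did the neutrophil-drawing Cxcl1 (-3.32 ± 0.43) and Cxcl2 (-2.93 ± 0.21). The CC chemokine genes Ccl3, Ccl4 and Ccl5 split. Ccl3 measured 575, 486 and 535 CPM at 4 h and 114, 108 and 90.1 CPM at 12 h and fell (-2.35 ± 0.11, edgeR adjusted p = 2.65e-10), and Ccl4 fell (-2.43 ± 0.20), whereas Ccl5 rose from 224, 152 and 413 to 720.5, 942 and 937 CPM (1.72 ± 0.29, edgeR adjusted p = 0.000236; 1.52 with GC correction). Isotype 4 h replicate 3 was the highest of the 4 h libraries in Ccl5, and the groups did not overlap. The monocyte chemokine Ccl2 did not pass the test (-0.51 ± 0.25), with 89.3, 96.9 and 79.1 CPM at 4 h and 85.6, 61.5 and 40.2 CPM at 12 h that overlapped. The other chemokine genes that rose were Cxcl5 (0.93 ± 0.34) and Pf4 (1.004 ± 0.36).

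Genes for anti-inflammatory cytokines and feedback inhibitors fell as well. Of 29 tested 15 were lower at 12 h and 1 higher, with a median of -0.47. Not all had been induced, as at 4 h 15 were called above untreated cells and 5 below. Nfkbia was not called at 4 h against untreated cells (0.17, edgeR adjusted p = 0.471). GC correction made this 21 lower and 2 higher (median -1.03), and the median among libraries of like tilt was -0.92. Nfkbia (ENSMUSG00000021025.8, chromosome 12, 55489410 to 55492647) measured 358, 289.9 and 564 CPM at 4 h and 148, 163 and 169.8 CPM at 12 h (log2 change -1.33 ± 0.17, edgeR adjusted p = 2.1e-05). At 12 h all 3 libraries lay below the untreated 359 ± 32.9 CPM, while 2 of the 4 h libraries were near or above it. Tnfaip3 measured 609.8, 564 and 608 CPM at 4 h and 197, 209 and 202 CPM at 12 h (-1.55 ± 0.08, edgeR adjusted p = 5.76e-10), with little spread within either group. Nfkbiz, an atypical IkB protein needed for Il6 transcription, fell most (-2.86 ± 0.12), followed by the decoy receptor gene Il1r2 (-2.69 ± 0.16), which had stood at 438 ± 33.6 CPM in untreated cells and was at 40.8 ± 5.82 CPM at 4 h. Socs3, which curbs STAT3 signalling, measured 97.7, 57 and 164 CPM at 4 h and 36.8, 37.5 and 44.6 CPM at 12 h (-1.42 ± 0.30; -2.16 with GC correction), and Cish, another member of that family, fell by 1.90 on the log2 scale. Zfp36, which speeds decay of cytokine mRNA, and Socs1 did not pass the test (0.29 ± 0.22 and 0.14 ± 0.52), nor with GC correction (-0.02 and -0.48). Il18bp, which neutralises interleukin-18, was the member that rose (1.24 ± 0.15), from 25.6, 19.7 and 23.4 to 49.7, 57.6 and 55.8 CPM.

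Of 11 genes for NF-kB subunits and their close partners 6 were lower and none higher (median -0.65), and 10 were lower with GC correction (median -0.73). Nfkb1 fell by 1.004 and Rel by 0.99 on the log2 scale, and so did the survival genes Cflar (-1.42 ± 0.10) and Bcl2a1d (-1.12 ± 0.14). Relb and Rela did not pass the test (0.21 ± 0.28 and 0.06 ± 0.29) but were lower with GC correction (-0.33 and -0.73). Of 28 immediate early factors 10 were lower and 4 higher, and 17 lower and 3 higher with GC correction (medians -0.15 and -0.44). Among libraries of like tilt the median was -0.56. Over all genes tested 19.3% were lower and 15.9% higher, and 20.6% and 16.8% with GC correction. Maff fell by 1.804 on the log2 scale (-2.52 with GC correction). Egr1, a growth-factor responsive zinc finger gene, measured 15.1, 14.2 and 22.5 CPM at 4 h and 14.1, 7.48 and 11.6 CPM at 12 h (-0.62 ± 0.19, edgeR adjusted p = 0.0192; -1.25 with GC correction), and its lowest 4 h library lay only just above its highest 12 h library. Fos rose from 15.8, 14.4 and 22.7 to 40.6, 34.2 and 34.7 CPM (1.04 ± 0.17, edgeR adjusted p = 0.000209).

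The promoter of Nfkbia is printed to show the kind of element through which NF-kB drives its own inhibitor. It gives the 250 bases before the RefSeq transcription start (build GRCm38.p6, gene strand, 5′ to 3′), with the match to the kB site (GGGA, any 2 bases, TTCC), searched on both strands, in capitals.
Nfkbia (chr12:55492648-55492897, - strand): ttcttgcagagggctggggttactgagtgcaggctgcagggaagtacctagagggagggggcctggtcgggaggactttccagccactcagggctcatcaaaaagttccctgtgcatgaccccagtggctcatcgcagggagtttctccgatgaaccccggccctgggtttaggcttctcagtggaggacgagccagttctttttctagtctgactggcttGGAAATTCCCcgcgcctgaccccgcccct
The match lies 29 to 20 bases before the start, on the other strand. The promoter of Tnf, searched in the same way, held no match. The Cxcl10 promoter printed further below holds a kB match that is left there in small letters. Among all 27025 genes with a promoter in this table, 1.43% hold a match within the 250 bases before and 50 after the start, using the first start listed per gene. It was found in 4 of 14 chemokine promoters (28.6%), 3 of 16 cytokine promoters (18.8%) and 1 of 24 feedback promoters (4.17%) that the table holds. It was in none of the 20 effector, 22 immediate early and 9 NF-kB subunit promoters, and in 2 of 9 of the GTPase list (22.2%). Over all genes called lower with a promoter the share was 1.86% and over those called higher 1.60%, and with GC correction 1.53% and 1.65%.

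Among inducible effector genes 16 of 32 were lower and 5 higher (median -0.56), and 16 and 6 with GC correction (median -0.32). The higher ones were near the share of all genes, 15.9% and with GC correction 16.8%, and 19.3% of all genes were lower. Ptgs2, which encodes the prostaglandin-forming enzyme COX-2, measured 283, 274 and 235 CPM at 4 h and 23, 30.1 and 28 CPM at 12 h (-3.29 ± 0.20, edgeR adjusted p = 2.6e-09). By contrast Ptges, whose product acts on the COX-2 product to give prostaglandin E2, rose (1.04 ± 0.20). Nos2, the inducible nitric oxide synthase gene, measured 21.97, 15.9 and 35.7 CPM at 4 h and 10.4, 9.39 and 10.4 CPM at 12 h (-1.29 ± 0.25, edgeR adjusted p = 0.000767), while Ass1, whose product regenerates the arginine that this enzyme uses, rose (0.99 ± 0.10). Acod1, which makes itaconate, measured 2591, 2241 and 2575 CPM at 4 h and 1880, 2054 and 2038 CPM at 12 h against 131 ± 18.1 CPM in untreated cells. Its small fall (-0.31 ± 0.09, edgeR adjusted p = 0.0125) was not called with GC correction (-0.22, edgeR adjusted p = 0.0721). The early activation marker Cd69 (-2.77 ± 0.18), the protease inhibitor gene Serpinb2 (-2.69 ± 0.23), the inflammasome sensor gene Nlrp3 (-1.86 ± 0.09) and the receptor gene Tlr2 (-1.40 ± 0.10) fell. Pycard, the adaptor that NLRP3 needs to activate caspase-1, rose (1.33 ± 0.16), from 42.6, 39.5 and 51.3 to 113, 107 and 117 CPM with no overlap.

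Interferon-stimulated antiviral genes moved in both directions. Of 36 tested 14 were lower and 10 higher, with a median of -0.04. With GC correction 14 were lower and 13 higher (median -0.10), and among libraries of like tilt the median was -0.08. In 17 genes the libraries were lower at 12 h without overlap and in 12 higher. Over all genes tested 45.8% did not overlap, 24.2% lower and 21.6% higher. Against untreated cells the list had a median log2 difference of 3.84 after 4 h, which was 3.61 after 12 h and 2.73 after 24 h, values that share the untreated libraries.

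Among the genes that fell were Ifit1, Rsad2 and Cmpk2. Ifit1, which binds foreign RNA caps, measured 993, 1076 and 934 CPM at 4 h and 397, 387 and 402 CPM at 12 h (-1.34 ± 0.17, edgeR adjusted p = 1.16e-05), against 23.2 ± 5.13 CPM untreated. Rsad2, the gene of viperin, measured 1966, 2008 and 1805 CPM at 4 h and 776, 785 and 787 CPM at 12 h (-1.30 ± 0.17), and its neighbour in function Cmpk2, a mitochondrial nucleotide kinase, 451, 463 and 468 CPM at 4 h and 168, 173 and 173 CPM at 12 h (-1.42 ± 0.14). In each of these genes the 12 h libraries lay within a narrow band below all 4 h libraries. Mx2 (-1.53 ± 0.15), the RNA sensor gene Ifih1 (-1.38 ± 0.13) and Mx1 (-0.85 ± 0.14) fell too. All remained above their untreated levels, as with Ifih1 at 173 ± 6.6 CPM at 12 h against 28.8 ± 4.49 untreated.

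Among the genes that rose were Bst2, Ifitm3 and Ifi44. Bst2, the gene of tetherin, measured 158, 127 and 304 CPM at 4 h and 475, 620.4 and 759 CPM at 12 h (1.65 ± 0.29, edgeR adjusted p = 0.00037; 1.24 with GC correction). Ifitm3, which blocks viral fusion, measured 119, 85.1 and 136 CPM at 4 h and 292, 296 and 326 CPM at 12 h (1.43 ± 0.19), and Ifi44 27.6, 33.7 and 23.5 CPM at 4 h and 75.3, 67.5 and 76.7 CPM at 12 h (1.38 ± 0.23; 1.74 with GC correction). None of these overlapped between the times. The synthetase genes Oas1g (1.41 ± 0.20) and Oas3 (1.19 ± 0.24) rose. Oas1g has close copies, so its counts may be shared with them. Isg15, a ubiquitin-like modifier, measured 337, 212 and 488 CPM at 4 h and 424, 432 and 496 CPM at 12 h, groups that overlapped, and did not pass the test (0.38 ± 0.22).

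**Figure D3:**
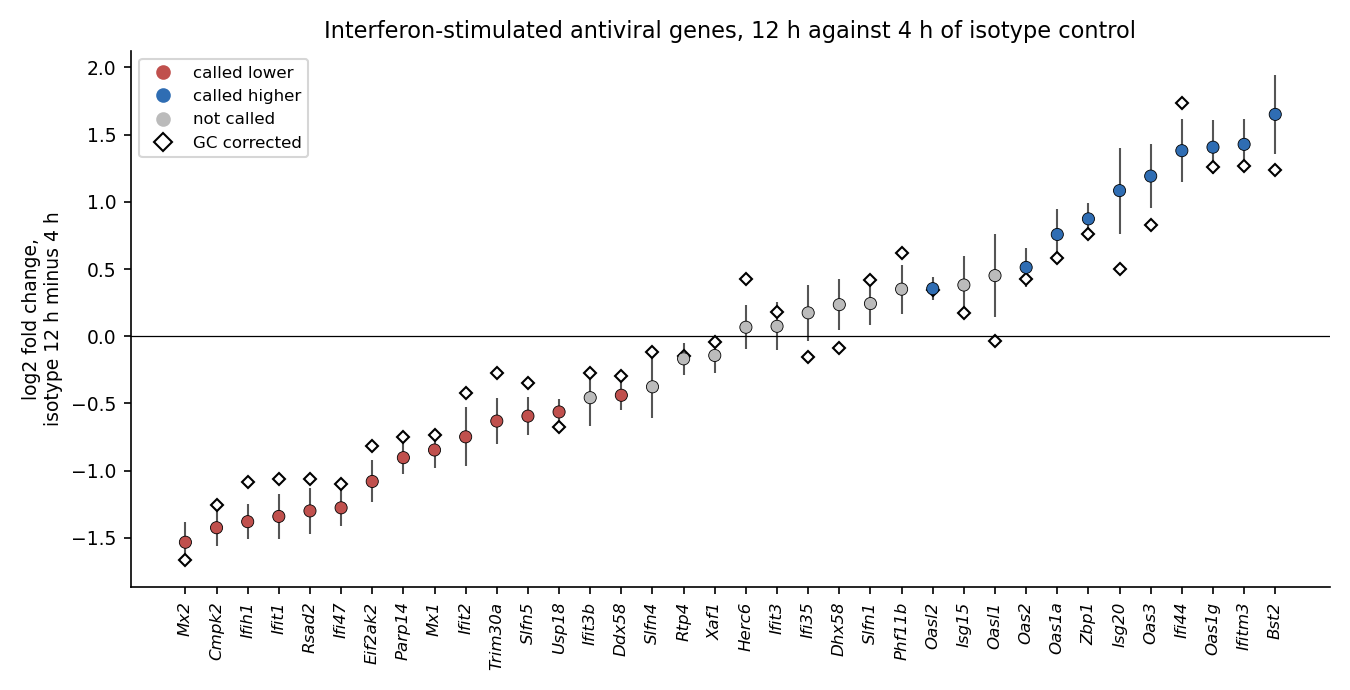
Points give the log2 fold change of isotype 12 h against 4 h for the 36 interferon-stimulated antiviral genes in rising order, bars 1 SE, and open diamonds the value with GC correction. The order runs from Mx2 at -1.53 to Bst2 at 1.65, with 14 genes called lower and 10 called higher, and the ends keep their sign with GC correction.

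Among 18 genes of interferon signalling 7 were lower and 4 higher (median -0.04), and 9 and 4 with GC correction (median -0.20). Irf7, the master factor of the late interferon response, measured 108, 86.8 and 203 CPM at 4 h and 448, 469 and 529 CPM at 12 h (1.86 ± 0.27, edgeR adjusted p = 6.77e-05; 1.44 with GC correction), against 9.12 ± 1.44 CPM untreated. It overlaps Phrf1 on the other strand. Irf1, an early factor, went the other way, from 380.3, 318 and 414 to 130, 156 and 146 CPM (-1.37 ± 0.10). Irf8 rose moderately (0.63 ± 0.17), and Stat2 did not pass the test (-0.26 ± 0.10) but was called lower with GC correction (-0.44). The guanylate-binding proteins and immunity-related GTPases, which attack vacuoles that hold pathogens, fell in 11 of 15 and rose in 1 (median -0.92). With GC correction 9 fell and 4 rose (median -0.56), and the median among libraries of like tilt was -0.50. Gbp5 measured 472, 485 and 472 CPM at 4 h and 156, 171 and 172 CPM at 12 h (-1.52 ± 0.17), and Irgm2 fell by 1.38 on the log2 scale. Tgtp1 (-2.14 ± 0.48) and Tgtp2 are near copies, and their counts may be shared.

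Promoters of a gene from the chemokine list and of one from the antiviral list are printed with their matches to the interferon-stimulated response element (GAAA, any 2 bases, GAAA) in capitals, as for Nfkbia.
Cxcl10 (chr5:92348890-92349139, - strand): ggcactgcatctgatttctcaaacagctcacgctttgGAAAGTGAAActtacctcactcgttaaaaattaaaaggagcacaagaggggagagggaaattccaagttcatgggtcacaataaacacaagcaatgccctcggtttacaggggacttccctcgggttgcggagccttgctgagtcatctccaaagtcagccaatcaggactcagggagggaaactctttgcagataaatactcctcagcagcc
Ifit1 (chr19:34640639-34640888, + strand): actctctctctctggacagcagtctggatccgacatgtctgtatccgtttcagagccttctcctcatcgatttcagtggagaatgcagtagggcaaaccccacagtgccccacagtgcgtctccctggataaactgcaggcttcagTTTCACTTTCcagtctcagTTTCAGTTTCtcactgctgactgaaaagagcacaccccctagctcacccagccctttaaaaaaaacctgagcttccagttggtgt
The match in Cxcl10 lies 213 to 204 bases before the start, and those in Ifit1 104 to 95 and 85 to 76 bases before it, on the other strand. This pattern was found in 3.49% of all promoters, in 16 of 28 of the antiviral list (57.1%) and in 9 of 9 of the GTPase list. It was in 4.91% of promoters of genes called lower and 3.43% of those called higher, and with GC correction in 4.39% and 4.04%.

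Genes of MHC class I and the immunoproteasome, which load peptides for CD8 T cells, rose. Higher were 11 of 16 and none was lower (median 0.69). With GC correction 9 were higher and 2 lower (median 0.36), and the median among libraries of like tilt was 0.31. H2-K1 measured 1265, 927 and 2042 CPM at 4 h and 2048, 2334 and 2577 CPM at 12 h (0.72 ± 0.23; 0.39 with GC correction), where 4 h replicate 3 fell just short of the lowest 12 h library. Psmb8, an immunoproteasome subunit, measured 150.4, 102 and 212 CPM at 4 h and 296, 314 and 339.9 CPM at 12 h (1.03 ± 0.23; 0.83 with GC correction). Its partner Psmb10 spread widely at 4 h, with 53.1, 20.6 and 164 CPM (1.47 ± 0.53), and its log2 change was 0.49 among libraries of like tilt. B2m, the common light chain, rose more with GC correction than without (0.67 and 0.35 ± 0.09). MHC class II genes were mostly not called, with 2 of 12 higher and 2 lower, near the shares of all genes (15.9% and 19.3%). With GC correction 7 were lower and 3 higher (medians -0.09 without and -0.43 with it), where 20.6% and 16.8% of all genes were. H2-Ab1 measured 1108, 779.6 and 1960 CPM at 4 h and 1151, 1314 and 1410 CPM at 12 h and was called with GC correction only (0.01 ± 0.28; -0.60, edgeR adjusted p = 3.21e-07). The same held for its activator gene Ciita (-0.38 ± 0.23; -0.82, edgeR adjusted p = 5.8e-05). H2-Ob, whose product restrains peptide loading in B cells, fell under both (-1.99 ± 0.16; -1.83).

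Across all genes and taking protein-coding genes whose 4 h and 12 h libraries did not overlap and whose mean log2 CPM reached 1, the largest falls were those of 14 genes, among them Il23a, Il6, Cxcl10, Cxcl1, Ptgs2 and Tnfsf9 described above. Cd207, the gene of the Langerhans cell lectin langerin, measured 9.62, 10.3 and 8.11 CPM at 4 h and 0.393, 0.44 and 0.212 CPM at 12 h (-4.99 ± 0.42, edgeR adjusted p = 1.44e-07), against 34.7 ± 5.22 CPM untreated. Ereg, which encodes the EGF receptor ligand epiregulin, measured 10.1, 11.2 and 6.95 CPM at 4 h and 0.337, 0.44 and 0.379 CPM at 12 h (-4.61 ± 0.32, edgeR adjusted p = 1.56e-08). Both were under 1 CPM in all 3 libraries at 12 h. Cd209a, a lectin gene with several close copies, was down to 4 counts over the 3 libraries at 12 h, a pooled ratio of 21.5 (95% interval 7.19 to 86.3, counting error only). Ccl1 (-3.70 ± 0.43), the protease gene Asprv1 (-3.28 ± 0.48) and the neutrophil surface gene Ly6g (-3.36 ± 0.40) followed. Cyp4a12b (-3.55 ± 0.42) and 2010005H15Rik (-3.56 ± 0.25) also fell, and both have near-identical copies. All 14 were also called with GC correction.

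The largest rises were of other kinds of gene. Susd2, which encodes a membrane protein with a sushi domain, measured 1.87, 2.17 and 3.36 CPM at 4 h and 24.6, 34.6 and 34.04 CPM at 12 h (3.62 ± 0.28, edgeR adjusted p = 5.06e-08; 3.12 with GC correction), against 0.213 ± 0.0688 CPM untreated. Pkp1, a desmosome component, measured 0.144, 0.18 and 0.579 CPM at 4 h and 3.25, 5.13 and 4.48 CPM at 12 h (3.67 ± 0.42), and had no count in untreated libraries. Tchh, known from hair follicles, measured 0.575, 0.902 and 3.94 CPM at 4 h and 16.4, 17.6 and 22.7 CPM at 12 h (3.29 ± 0.45; 2.91 with GC correction). In these genes 4 h replicate 3 was the highest of its group and yet below every 12 h library. Tmem119, used as a marker of microglia, measured 0.575, 0.361 and 1.27 CPM at 4 h and 5.67, 6.01 and 7.04 CPM at 12 h (2.98 ± 0.40; 2.33 with GC correction), so that the 4 h libraries lay below and the 12 h libraries above the untreated 4.04 ± 0.84 CPM. Gsta1 had 3 counts over the 4 h libraries, a pooled ratio of 11.6 (95% interval 3.89 to 56.8), and belongs to a family of close copies. Serinc2 (3.22 ± 0.43; 2.65 with GC correction), the kinase genes Wnk2 (2.92 ± 0.67; 2.15 with GC correction) and Matk (2.59 ± 0.51; 1.96), the netrin receptor gene Unc5b (2.76 ± 0.46; 2.10), the anthrax toxin receptor gene Antxr1 (2.76 ± 0.59), Pdlim4 (2.50 ± 0.42), the tubulin gene Tubb2b (2.56 ± 0.41), the potassium channel gene Kcnh3 (2.52 ± 0.52; 1.78) and C130050O18Rik (2.75 ± 0.38; 2.23) complete the 14. All 14 were still called with GC correction, and all of them except Gsta1 with a smaller log2 change than without it.

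Saa3, Hp and Marco were higher members of the effector list. Saa3, the macrophage serum amyloid gene, measured 138, 93.8 and 173 CPM at 4 h and 461, 485 and 565 CPM at 12 h (1.90 ± 0.18, edgeR adjusted p = 8.75e-07; 1.94 with GC correction), against 8.24 ± 0.376 CPM untreated. Hp, the gene of haptoglobin, rose from 64.8, 38.8 and 78.5 to 201, 157 and 157 CPM (1.49 ± 0.25; 0.96 with GC correction). Marco, a scavenger receptor that binds bacteria, rose (1.46 ± 0.33). Acp5, the tartrate-resistant acid phosphatase gene and an osteoclast marker, rose from 46.2, 38.6 and 80.99 to 189.7, 204 and 254 CPM (1.96 ± 0.29; 1.47 with GC correction). Saa3 and Acp5 were about as high at 24 h (503 ± 43.1 and 242 ± 35.4 CPM), whereas Bst2 stood at 279.9 ± 7.99 CPM.

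**Figure D4:**
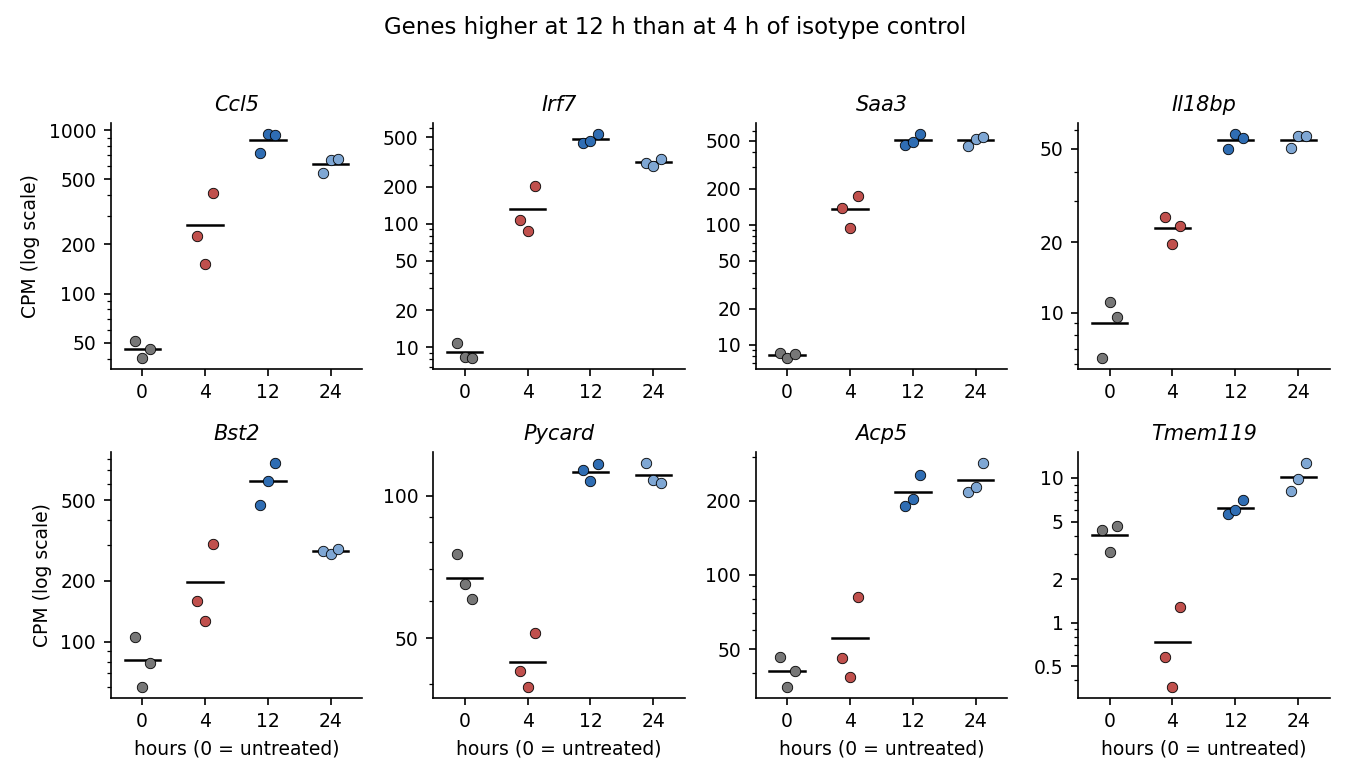
Each panel plots the CPM (log scale) of 1 gene in every untreated (0 h) and isotype library, with 3 points per time and a bar at their mean. In all 8 genes every 12 h library lies above every 4 h library, and in Pycard and Tmem119 the 4 h libraries lie below the untreated ones.

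Sterol synthesis genes fell together. Of 23 tested 15 were lower and none higher (median -1.21). With GC correction 19 were lower (median -1.13), and the median among libraries of like tilt was -1.05. These enzymes are switched on by SREBP-2 when cells lack cholesterol. Hmgcs1, which makes HMG-CoA, measured 716, 788 and 679 CPM at 4 h and 239, 223 and 228 CPM at 12 h (-1.66 ± 0.10, edgeR adjusted p = 2.75e-09; -1.38 with GC correction). The 4 h libraries were around the untreated 737 ± 20.2 CPM, and the 12 h libraries were all far under it. Idi1 fell most (-2.02 ± 0.17), from 719, 787 and 616 to 169, 181 and 174 CPM. Insig1, which retains SREBP in the endoplasmic reticulum (-1.47 ± 0.09) and Sc5d (-1.50 ± 0.09) fell too. Srebf2 itself, the gene of SREBP-2, was called with GC correction only (-0.01 ± 0.35; -0.61, edgeR adjusted p = 3.9e-05).

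Cholesterol export moved the other way. Of 12 genes of the LXR and efflux list 6 rose and 2 fell, with GC correction as well (medians 0.40 and 0.24). Abca1, the pump that loads apolipoprotein with cholesterol, measured 151, 142 and 139 CPM at 4 h and 303, 303 and 334 CPM at 12 h (1.12 ± 0.10, edgeR adjusted p = 5.97e-07; 1.22 with GC correction), without overlap. Abcg1 (1.05 ± 0.17) and the LXR alpha gene Nr1h3 (1.25 ± 0.30; 0.70 with GC correction) rose. Ch25h, an interferon-induced enzyme that makes 25-hydroxycholesterol, fell (-1.81 ± 0.28), from 30.3, 27.2 and 66.4 to 10.2, 14.1 and 11.7 CPM. The promoter of Hmgcs1 holds 1 match to the sterol regulatory element core TCACNCCAC, shown in capitals as above.
Hmgcs1 (chr13:119690101-119690350, + strand): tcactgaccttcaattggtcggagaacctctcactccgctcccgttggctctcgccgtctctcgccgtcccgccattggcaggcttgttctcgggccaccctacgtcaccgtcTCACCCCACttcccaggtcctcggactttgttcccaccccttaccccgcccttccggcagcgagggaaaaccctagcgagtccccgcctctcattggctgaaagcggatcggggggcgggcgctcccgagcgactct
The match lies 137 to 129 bases before the start. This core was found in 1.22% of all promoters and in 1 of the 16 sterol synthesis promoters in the table, this one.

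Hypoxia genes fell in 8 of 13 and rose in none (median -0.62), and in 9 with GC correction (median -0.82). Egln3, an oxygen sensor that HIF induces, fell from 13.4, 13.5 and 12.4 to 3.2, 2.49 and 4.22 CPM (-1.91 ± 0.18, edgeR adjusted p = 7.91e-07). Bnip3, a mitophagy receptor gene, fell (-1.37 ± 0.15), and so did Hif1a itself (-0.90 ± 0.15) and Vegfa (-0.92 ± 0.25). Ribosome biogenesis genes fell slightly, in 14 of 30 with none higher (median -0.25), also with GC correction (median -0.23). The largest fall was that of Nop58, a core protein of small nucleolar particles (-0.75 ± 0.12; -0.41 with GC correction).

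Cell cycle genes differed by phase, with falls in most mitosis and G2/M genes while most DNA replication genes were not called. Of 30 mitosis and G2/M genes 22 were lower and 1 higher (median -1.23), and with GC correction 21 were lower (median -1.19). Among libraries of like tilt the median was smaller, -0.62. Mki67, the gene of the proliferation antigen Ki-67, measured 125, 168 and 89.8 CPM at 4 h and 42.6, 34.3 and 32.1 CPM at 12 h (-1.81 ± 0.24, edgeR adjusted p = 2.95e-05). Its 4 h replicate 3 was the lowest of the 4 h group and still above every 12 h library. Kif11, a spindle motor (-1.94 ± 0.40), Ccnb2, a mitotic cyclin (-1.86 ± 0.39), and Ube2c, which acts in cyclin degradation (-1.82 ± 0.39; -2.41 with GC correction), fell, while Cdk1 did not pass the test (-0.46 ± 0.24), with 19.8, 20.7 and 12.4 CPM at 4 h and 14.98, 10.9 and 12.1 CPM at 12 h. Kif11 measured 12.9, 15.5 and 4.52 CPM at 4 h and 2.8, 3.23 and 2.59 CPM at 12 h, so that against 4 h replicate 3 alone its log2 change was -0.63. Of 30 DNA replication and G1/S genes 9 were higher, 2 lower and 19 not called (median 0.23), where 15.9% of all genes were higher and 19.3% lower. With GC correction 7 were higher and none lower (median 0.14), where 16.8% of all genes were higher. Mcm2, a subunit of the replicative helicase, measured 7.61, 5.95 and 9.73 CPM at 4 h and 18.4, 19.9 and 15.8 CPM at 12 h (1.19 ± 0.20, edgeR adjusted p = 0.000268; 1.02 with GC correction). Cdt1, which loads that helicase (1.40 ± 0.39; 0.77 with GC correction), and E2f1 (1.197 ± 0.27; 0.51) rose, whereas Mcm5 did not pass the test (0.62 ± 0.24). The D cyclin genes went apart, with Ccnd2 lower (-1.51 ± 0.17) and Ccnd3 higher (1.33 ± 0.30; 0.80 with GC correction), and the inhibitor gene Cdkn1a fell (-1.25 ± 0.12).

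The promoter of the mitotic cyclin gene Ccnb1 (-1.53 ± 0.35; -0.57 among libraries of like tilt) is printed with its CCAAT boxes in capitals, an element common in promoters of G2/M and sterol genes.
Ccnb1 (chr13:100786487-100786736, - strand): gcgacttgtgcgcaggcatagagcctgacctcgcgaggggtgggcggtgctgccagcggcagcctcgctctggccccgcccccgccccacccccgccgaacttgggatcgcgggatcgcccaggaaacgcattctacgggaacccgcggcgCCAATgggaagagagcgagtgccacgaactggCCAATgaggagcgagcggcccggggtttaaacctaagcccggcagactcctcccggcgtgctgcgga
The boxes lie 99 to 95 and 67 to 63 bases before the start. CCAAT on either strand was found in 20 of 25 mitosis promoters (80.0%), 15 of 25 G1/S promoters (60.0%) and 15 of 16 sterol synthesis promoters (93.8%), and in 37.9% of all promoters. The share was 39.3% among genes called lower and 38.5% among those called higher, and with GC correction 38.4% and 38.1%.

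Lysosomal and macrophage genes rose in part. Of 30 lysosomal genes 12 were higher and 2 lower (median 0.25), and 11 and 1 with GC correction (median 0.11). Gaa, the acid glucosidase gene, measured 17.9, 8.84 and 42.9 CPM at 4 h and 83.1, 94.2 and 90.1 CPM at 12 h (1.91 ± 0.45; 1.202 with GC correction), Neu1, a sialidase, rose (0.83 ± 0.27), and Ctsz, a cathepsin, rose (0.89 ± 0.21; 0.23 with GC correction). Of 16 Fc gamma receptor genes and their signalling partners, the system that binds IgG Fc, 8 were higher and 1 lower (median 0.30), but 6 and 3 with GC correction (median 0.01). Fcgr1, the high-affinity IgG receptor, measured 77.4, 60.8 and 71.6 CPM at 4 h and 119.8, 107 and 107 CPM at 12 h (0.67 ± 0.10, edgeR adjusted p = 0.000114; 0.51 with GC correction), and Fcgr4 (0.75 ± 0.21) and the inhibitory phosphatase gene Inpp5d (0.87 ± 0.11) rose. Of 12 macrophage markers 6 were higher and 2 lower (median 0.36), and 5 and 3 with GC correction (median 0.10). Their summed level was nevertheless lower at 12 h than at 4 h, as given above. Adgre1, the gene of F4/80, measured 289, 322 and 231 CPM at 4 h and 587, 557 and 619 CPM at 12 h (1.07 ± 0.13). Cd68 rose (0.88 ± 0.16), while Lyz2 (-0.39 ± 0.08) and the leukocyte gene Ptprc (-0.64 ± 0.14) fell. Dendritic cell markers went both ways, with 5 of 12 higher and 3 lower (median 0.25), and 6 and 3 with GC correction (median 0.10). Flt3 (1.55 ± 0.14) and Ccr7 (0.78 ± 0.14) rose, and Zbtb46 (-0.86 ± 0.10) and Cd209a fell.

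Alternative activation genes, those that IL-4 induces in macrophages, fell in 10 of 19 and rose in 3 (median -0.69), and 12 fell and 2 rose with GC correction (median -0.68). Ccl17, a chemokine for Th2 cells, measured 787, 529.8 and 561 CPM at 4 h and 160.1, 147 and 129 CPM at 12 h (-2.11 ± 0.20, edgeR adjusted p = 5.72e-07). The galactose lectin gene Mgl2 measured 584, 534 and 548 CPM at 4 h and 192, 197 and 205 CPM at 12 h (-1.49 ± 0.10), against 1129 ± 107 CPM untreated, and its paralogue Clec10a fell from 10.1, 8.3 and 9.62 to 3.31, 2.35 and 2.65 CPM. Arg1 was low and did not pass the test (-0.61 ± 0.39), with 2.3, 3.25 and 2.32 CPM at 4 h and 2.41, 1.32 and 1.33 CPM at 12 h against 27.5 ± 11.1 CPM untreated.

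Granulocyte genes fell alongside. Of 12 neutrophil and granule markers 8 were lower and 1 higher (median -1.48), and 9 were lower with GC correction (median -1.53). S100a9, a calprotectin chain, measured 481, 659.9 and 487 CPM at 4 h and 157, 119.9 and 127 CPM at 12 h (-2.01 ± 0.20, edgeR adjusted p = 1.16e-06), and Ngp, a granule protein gene, 149, 180.4 and 142 CPM at 4 h and 48.8, 39.5 and 27.8 CPM at 12 h (-2.03 ± 0.23). Csf3r, the G-CSF receptor gene, was the marker that rose (0.43 ± 0.12), and it was not called with GC correction (0.09). Of 10 mast cell, basophil and eosinophil markers 6 were lower and none higher (median -0.99), and 7 were lower with GC correction (median -0.98). Prg2, the eosinophil major basic protein gene, measured 271, 352 and 321 CPM at 4 h and 199.6, 144 and 143 CPM at 12 h (-0.96 ± 0.21). The part of these cells in the falls of Il1b, Cxcl2, Ptgs2 and other genes that granulocytes also express was not tested.

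**Figure D5:**
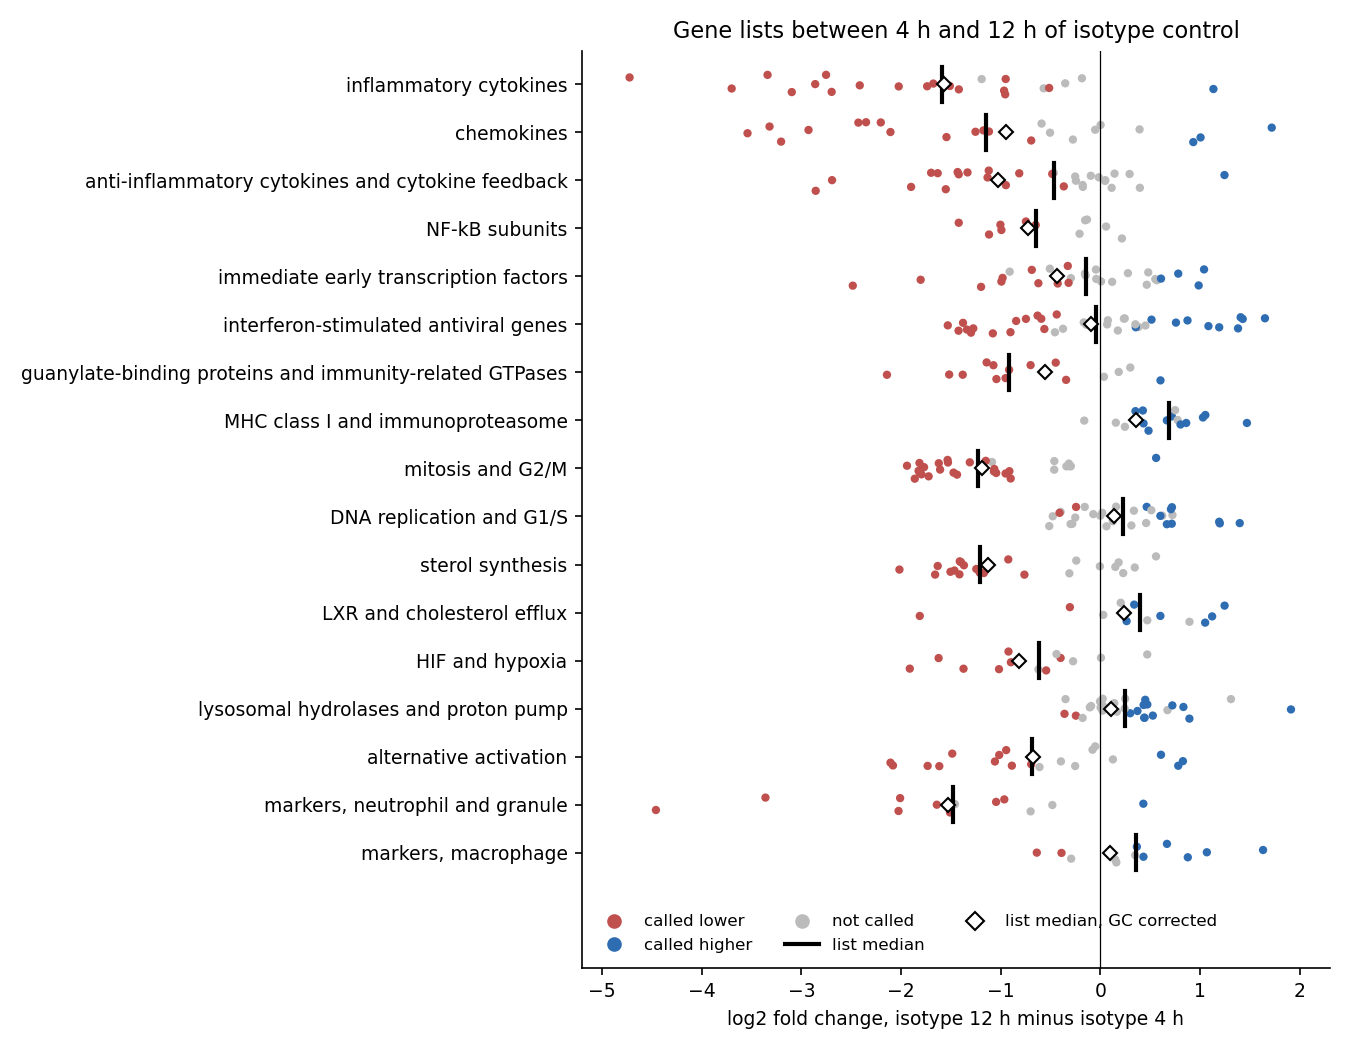
Each point is the log2 fold change of isotype 12 h against 4 h for 1 tested gene of a list, coloured by its edgeR call, with bars at the list medians and open diamonds at the medians with GC correction. Medians run from -1.59 in the inflammatory cytokines to 0.69 in MHC class I and immunoproteasome, and the correction moves the feedback list (from -0.47 to -1.03) and the GTPase list (from -0.92 to -0.56) the most of the lists drawn.

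The same interval was examined in the FcMR cells, which share no library with this comparison. There 5426 genes (40.3%) were called, 2892 higher (21.5%) and 2534 lower (18.8%). Of the isotype calls, 1413 of the higher genes (65.9% of the isotype and 48.9% of the FcMR list) and 1632 of the lower genes (62.9% and 64.4%) were called in the same direction with FcMR, and 24 and 8 in the opposite one. The test of the difference between the 2 changes called 726 genes (5.39%), 370 (2.75%) with the isotype change above the FcMR change and 356 (2.64%) below it. With DESeq2-type size factors this split was 453 to 226. With GC correction 1735 genes (12.9%) were called, 1116 above (8.29%) and 619 below (4.6%), and 77 were when only isotype 4 h replicate 3 and FcMR 12 h replicate 1 stood for their groups, the libraries whose tilt is like that of their counterpart group. FcMR 12 h replicate 1 had a GC tilt of -0.72 and the other FcMR 12 h libraries 0.72 and 0.80, and the part of this in the counts was not tested.

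Several genes that fell under both treatments did so by different amounts. At 4 h Tnf, Ccl3, Il1b, Il23a and Ereg were higher with FcMR. Mean Tnf went from 1057 to 145 CPM with isotype and from 5790 to 485 CPM with FcMR, and Il1b from 970 to 150 and from 5768 to 2394 CPM. Tnf fell less with isotype (-2.86) than with FcMR (-3.58), a difference of 0.72 ± 0.15 (edgeR adjusted p = 0.00918), and so did Ccl3 (-2.35 and -3.54, edgeR adjusted p of the difference = 0.000206) and Ccl4 (-2.43 and -4.71, 0.000131). Il23a did too (-4.72 and -7.12, edgeR adjusted p of the difference = 0.00237). Il1b fell more with isotype (-2.70) than with FcMR (-1.27), a difference of -1.43 ± 0.20 (edgeR adjusted p = 0.000595). The same held for Ereg (-4.61 and -1.97, 0.000817). All of these differences were also called with GC correction. Il6, Cxcl10 and Tnfaip3 did not pass the test of the difference (edgeR adjusted p = 0.212, 0.546 and 0.732).

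Other genes were flat in isotype cells and fell with FcMR. Mamdc2 measured 85.7, 78.1 and 76.7 CPM at 4 h and 72.9, 82 and 79.5 CPM at 12 h with isotype, without a trend, and 52.4 ± 1.77 CPM at 4 h and 13.3 ± 0.262 CPM at 12 h with FcMR, a difference of 1.94 ± 0.12 (edgeR adjusted p = 7.74e-08). Mxd1, an antagonist of MYC, behaved likewise (-0.09 and -1.72), as did Prr5l (0.12 and -1.30) and the cadherin gene Fat3 (0.11 and -3.75). Fos rose with isotype and not with FcMR (1.04 and -0.18, edgeR adjusted p of the difference = 0.00867), and Fcgr1 likewise (0.67 and -0.18, 0.00252). In the antiviral list 3 of 36 had a higher change with isotype and none a lower one, and 18 of 36 with GC correction, where 8.29% of all genes were.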

How the data were processed

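RNA was sequenced from 21 libraries with an unstranded poly(A) kit, per the labels' protocols. The authors deposited 2 tables whose units were inferred from their values and the named tools, estimated counts per gene as whole numbers and a normalized signal, which equals the count divided by a factor that differs by library and gene. The submitters' processing notes name CASAVA 1.8.2, kallisto 0.44.0, DESeq2 and mm10 (GRCm38). Symbols and positions of 23206 of 23250 genes came from GENCODE M21. The counts were tested with edgeR 4.0.16 (R 4.3.3; TMM, quasi-likelihood, all 21 libraries, minimum count 10, Benjamini-Hochberg over 13468 genes, called at an adjusted p under 0.05). The procedure was tested on simulated data. GC correction removed a lowess trend (span 0.3) per library. DESeq2 1.42.0 and limma 3.58.1 were alternatives.

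Genes named are the 14 largest falls and the 14 largest rises, a fixed set of response genes, up to 4 examples per list and 8 genes of the difference between treatments. Other list members named were chosen after their values were seen. The comparison, the lists and the fixed set were chosen with earlier results of these data known. Library totals ran from 5532225 to 66729533 counts, and 3 counts equal 0.045 to 0.542 CPM in the libraries used.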

Additional observations from a re-analysis of the deposited data

Results flagged for a closer look

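The change from 4 h to 12 h differed between isotype and FcMR cells, by the edgeR test of the difference itself, in 726 genes, a count that depends on the processing as given below. The 8 genes with the smallest p were not all alike. Mamdc2 (1.94), Mxd1 (1.63), Prr5l (1.42) and Fat3 (3.87) had positive differences on the log2 scale, with isotype changes near 0 and falls with FcMR. Ehd4 had a difference of 1.36, from 0.26 with isotype and -1.11 with FcMR (edgeR adjusted p = 5.6e-06), and Coro2a, a coronin family gene, one of 1.38, from 0.47 and -0.91 (edgeR adjusted p = 2.16e-05). Emp1, a membrane protein gene, fell under both treatments, by 1.72 with isotype and by 3.56 with FcMR, a difference of 1.84. Acp2, a lysosomal acid phosphatase gene, rose with both (0.42 and 1.25), a difference of -0.83. The difference was also called with GC correction in all 8, and the isotype changes of Ehd4 and Coro2a were then 0.11 and 0.13 and no longer called (edgeR adjusted p = 0.225 and 0.375).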

How the results depend on the processing

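With other tools and scalings the count of 4737 calls stayed within 1.5 times, at 4792 with RLE size factors, 4922 with DESeq2, 4822 with limma voom, 4364 on the authors' normalized values, 4290 in libraries thinned to the smallest total (chosen after seeing the data) and 3858 without an expression filter, where 1507 genes were lower. The 6 libraries alone gave 2689 calls (1206 higher, 1483 lower). Without FcMR 12 h replicate 1 and isotype 4 h replicate 3 there were 7127 (3963 higher, 3164 lower), and in libraries of like GC tilt, a choice made after seeing the data, 1786 (914 higher, 872 lower). Leaving out 1 library gave 3126 to 6739 calls, 1579 to 3746 higher and 1466 to 2993 lower, the ends being without isotype 4 h replicate 2 (3126 called, 1466 lower) and without isotype 4 h replicate 3 (6739 called, 3746 higher). The causes were not tested.

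The FcMR interval gave 4351 to 5915 calls, 2178 to 3345 higher and 1980 to 2570 lower with 1 library left out, and 1886 higher in libraries of like tilt. The test of the difference gave 349 calls without a filter (76 below), 359 with only the libraries compared (89 below), 400 on the authors' values (107 below), 404 when thinned (131 below), 77 with like tilt (58 above, 19 below), 1735 with GC correction (1116 above, 619 below), 580 above with DESeq2 and 226 below with RLE size factors. Leaving out 1 library gave 323 to 1422 calls, 198 to 734 above and 107 to 688 below, with 1422 without isotype 4 h replicate 3 and 323 without isotype 12 h replicate 1. The causes were not tested.

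Whether the replicate numbers pair the libraries was not settled, and the main fit holds no replicate term. Deviations of same-numbered isotype libraries correlated at 0.091, -0.03 and 0.219 and those of FcMR libraries at 0.094, 0.166 and -0.044. The GC tilt enters these values, so low ones cannot exclude pairing. Mcm5, for 1, kept its replicate order in untreated, 12 h and 24 h isotype libraries but not at 4 h. Replicate 3 was the highest for Cxcl1 and the lowest for Ccl2 and Mki67 in untreated cells and at all isotype times. For Il6 replicate 3 was the lowest at 4 h and the highest at 12 h. These genes were picked after their values were seen. With the replicate block there were 5027 isotype calls (2406 higher, 2621 lower), 5589 FcMR calls and 798 calls of the difference, and with GC correction and replicate block 1915 of the difference (1234 above, 681 below). The median of the interferon signalling list turned positive without a filter (0.06) and on the authors' values (0.03). That of the ATF4 list turned negative with GC correction (-0.06) and with GC correction and replicate block (-0.06). That of the chemokine receptors turned positive with GC correction (0.15), with GC correction and replicate block (0.15), without isotype 4 h replicate 2 (0.10, where the other single libraries left out gave down to -0.44) and with like tilt (0.31). Medians closer to 0 also changed sign with GC correction in the circadian clock (0.11 to -0.16) and glycolysis (0.05 to -0.22) lists.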

Other observations

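Further gene lists had smaller counts, read beside the 15.9% of all genes called higher and 19.3% called lower. Heat shock and proteostasis genes, whose products fold proteins, were mostly flat with isotype, with 2 of 11 called higher (Hspe1 0.29 ± 0.11 and Hsph1 0.30 ± 0.11) and none lower. With FcMR 9 of 11 were called higher (median 0.52), and the difference between the treatments was called for 3, all with the smaller change in isotype cells, and for 5 with GC correction. Circadian clock genes held a rise of Per1, a clock repressor that glucocorticoids also induce (1.84 ± 0.33; 1.12 with GC correction), and a fall of Cry1, its partner in repression (-1.60 ± 0.13). In all, 3 of 15 clock genes were higher and 2 lower, also with GC correction, and the median went from 0.11 to -0.16.

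Of 25 genes of the ATF4 and unfolded protein response 7 were higher and 3 lower, but 7 and 7 with GC correction (medians 0.22 and -0.06). Ddit3, which encodes the stress factor CHOP, measured 9.48, 8.66 and 18.5 CPM at 4 h and 36.01, 37.3 and 44.4 CPM at 12 h (1.66 ± 0.28), and Pycr1, an enzyme of proline synthesis, measured 0.862, 1.8 and 0.348 CPM at 4 h and 0.168, 0.147 and 0.182 CPM at 12 h (-2.40 ± 0.47). Neither gene overlapped between the times. Pycr1 lay near the count floor, since 3 counts equal 0.174 and 0.449 CPM in 12 h replicates 1 and 2. In 4 h replicate 3 they equal 0.327 CPM, so the size of the fall of Pycr1 rests on few counts. Of 12 chemokine and chemoattractant receptors 5 were lower and 3 higher, but 3 lower and 5 higher with GC correction (medians -0.25 and 0.15). Ccrl2 (-1.67 ± 0.09) and the formyl peptide receptor gene Fpr1 (-1.31 ± 0.16) fell, while the fractalkine receptor gene Cx3cr1 rose (1.07 ± 0.19). Among scavenger and uptake receptors 8 of 22 rose and 6 fell, and 10 and 7 with GC correction, with Lrp1 (1.37 ± 0.44; 0.81 with GC correction) and Trem2 (0.84 ± 0.27) higher and Olr1, an oxidised LDL receptor gene (-0.94 ± 0.15), lower. Oxidative phosphorylation genes rose in 5 of 32, a share near that of all genes, and fell in 1, and glycolysis genes rose in 5 and fell in 5 of 23, which became 2 and 8 with GC correction.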
